A study of Mus musculus with 5 samples.

Results

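The Notch genes described here were taken by symbol from RNA sequencing of murine lung cancer-associated fibroblasts (CAFs), the activated fibroblasts of tumors. They are the receptors *Notch1*, *Notch2*, *Notch3* and *Notch4*, the ligands *Jag2* and *Dll1*, the DNA-binding partner *Rbpj* and the target genes *Hes1*, *Hey1* and *Heyl*, 10 of the 21835 genes in the table. CAFs carrying the control vector (CAF-vec, 2 samples, genotype labelled WT control) were compared with CAFs overexpressing the miR-200b, miR-200a and miR-429 cluster (CAF-200, 3 samples), to learn which transcripts differ when the cluster is restored in CAFs. Both groups were the same labelled CAF line from lung, grown in alpha-MEM with 10% serum, and the labels describe lentiviral infection followed by G418 selection. The study's methods differ from the labels, since they describe a pLVX-Hyg construct in LFs (lung fibroblasts) and triplicate RNA from each kind of CAF, whereas 2 CAF-vec samples are analysed here. The labels do not say whether the samples of a group came from separate infections or cultures, so *p* values measure the spread between these samples, which may be technical.

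Notch is a receptor that signals between touching cells. A Delta or Jagged ligand on a neighbor pulls on it, ADAM proteases and then γ-secretase cut it, and the freed intracellular domain enters the nucleus, where it joins RBPJ and a Mastermind co-activator on target genes such as *Hes1* and *Hey1*, which encode basic helix-loop-helix repressors. In the lung, NOTCH3 and HEYL are known from mural cells and NOTCH4 and DLL4 from endothelium, and fibroblasts also carry Notch receptors. Transcript levels do not measure receptor cleavage.

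The miRNAs of the cluster fall into 2 seed groups, and they are shown because a seed match in a 3′-UTR is the usual way a miRNA recognizes a transcript. The mature sequences are from RefSeq (GRCm38.p6, chromosome 4, minus strand), 5′ to 3′, with the seed (bases 2 to 8) in capitals.
miR-200a-3p: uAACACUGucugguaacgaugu
miR-200b-3p: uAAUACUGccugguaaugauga
miR-429-3p: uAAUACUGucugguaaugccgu
The first has a seed of its own, and the other two share theirs. Of the 10 genes, 4 held a match to either seed in the longest annotated 3′-UTR (GENCODE M21, GRCm38), each of them 1 match, against 30.3% of the tested genes with an annotated 3′-UTR (3650 of 12060). *Notch1* had its match, CAGTGTT, at chr2:26458846-26458852 on the minus strand, *Notch2* at chr3:98150029-98150035 on the plus strand and *Heyl* at chr4:123248764-123248770 on the plus strand, all 3 to the miR-200a seed. *Jag2* had its match, CAGTATT, to the seed that miR-200b shares with miR-429, at chr12:112907992-112907998 on the minus strand. These sites are written below in the sense of the transcript, with the match in capitals and 8 bases on each side.
Notch1: gcaggctcCAGTGTTctgtagta
Notch2: aaggtgttCAGTGTTcacgtgtg
Heyl: attttgctCAGTGTTtatgctac
Jag2: gacggcggCAGTATTgaagcttg
The longest annotated 3′-UTRs of *Notch3*, *Notch4*, *Dll1*, *Rbpj*, *Hes1* and *Hey1* held neither heptamer. By comparison, *Zeb1*, an established miR-200 target, held 4 matches to the miR-200a seed and 5 to the other.

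The deposited values are on the scale of normalized CPM, and each sample sums to between 999956 and 1000111 CPM, so the number of reads behind a value is unknown. Whether they are plainly scaled read counts is not known, since most low values were not whole multiples of a common step, and of the CAF-200 samples all listed the same 6127 genes at 0 and 0 genes were at 0 in only some. Whether the values of a sample depend on the other samples of its group, which would bear on the small spread within CAF-200 and on all *p* values, was not tested. Between the CAF-vec samples 499 genes were more than 1 log2 unit apart, against 36 to 46 genes for any pair of CAF-200 samples, so for the 10 Notch genes fold-changes are also given without a CAF-vec sample where this changes a call. All 9 fibroblast markers were expressed, with a summed level of 7457 and 14148 CPM under the control vector and 6609 to 7302 CPM under the cluster. That sum was mostly *Col1a1*, *Col1a2* and *Vim*, which had log2 fold-changes of -0.91, -0.75 and -0.39 and did not pass, whereas *Dcn* (2.75), *Lum* (2.82) and *Thy1* (1.46) rose and *Col3a1* had 1.02 without passing (limma adjusted *p* = 0.0542). Endothelial markers summed to 1.88 to 3.17 CPM with the control vector and 0.710 to 0.978 CPM with the cluster, with *Tie1*, *Emcn* and *Cldn5* at 0. Most of that sum was *Kdr*, the 1 endothelial marker tested, which fell (means 2.06 and 0.569 CPM, limma adjusted *p* = 0.00807), while *Cdh5* had means of 0.0335 and 0.0982 CPM. Epithelial markers summed to at most 0.421 CPM, with *Krt18*, *Sftpc* and *Nkx2-1* at 0. Pericyte and smooth muscle markers summed to 7.70 to 8.96 CPM and 6.66 to 7.87 CPM, with *Kcnj8* and *Abcc9* at 0, and leukocyte markers to 8.34 to 9.31 CPM and 12.2 to 12.8 CPM, with *Adgre1* and *Cd3e* at 0. Of the 3 leukocyte markers tested, *Lyz2* rose (1.91) and *Cd68* (-0.14) and *Csf1r* (-0.46) did not pass and had overlapping groups. Their part in the results was not tested. As a check of the labels, *Zeb1* was 43.5 and 50.8 CPM in CAF-vec and 37.8, 37.5 and 34.1 CPM in CAF-200, lower in each CAF-200 sample (log2 fold-change -0.36, standard error 0.107, limma adjusted *p* = 0.0504). The log2 fold-change of *Zeb1* was -0.47 without CAF-vec 1 and -0.25 without CAF-vec 2, with a lone CAF-vec sample in each fit. In the other 11 alternative fits *Zeb1* did not pass, among them those without 1 CAF-200 sample (limma adjusted *p* = 0.134 to 0.183), with quantile normalization (0.152) and with centring (0.137). *Zeb2* was 46.2 and 29.8 CPM in CAF-vec, and CAF-200 ranged from 31.1 to 31.9 CPM, so its groups overlapped (log2 fold-change -0.23, limma adjusted *p* = 0.374). The log2 fold-change of *Zeb2* was 0.083 without CAF-vec 1 and -0.54 without CAF-vec 2. The miRNAs themselves were not analysed here.

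Of the 10 Notch genes, *Hes1* was the only one that passed the test between CAF-vec and CAF-200, and its mean rose by a ratio of 3.94. The test was limma on log2(CPM + 0.5), and a gene passed at an adjusted *p* under 0.05, which 30.5% of the 12175 genes tested did, 11.9% higher and 18.6% lower in CAF-200. Of the 10 genes, 8 were expressed highly enough to be tested (at least 0.5 CPM in at least 2 samples), 1 was higher, 0 were lower (0 also at an unadjusted *p* under 0.05, limma) and 7 did not pass. The median log2 fold-change of the 8 genes was -0.14, beside -0.094 for all genes tested. The groups did not overlap for 5 of the 8 genes, 2 higher and 3 lower in CAF-200, and for 61.6% of all genes tested (24.3% higher and 37.3% lower). In these bulk samples, fewer expressing cells and less RNA per cell cannot be told apart.

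**Figure D1:**
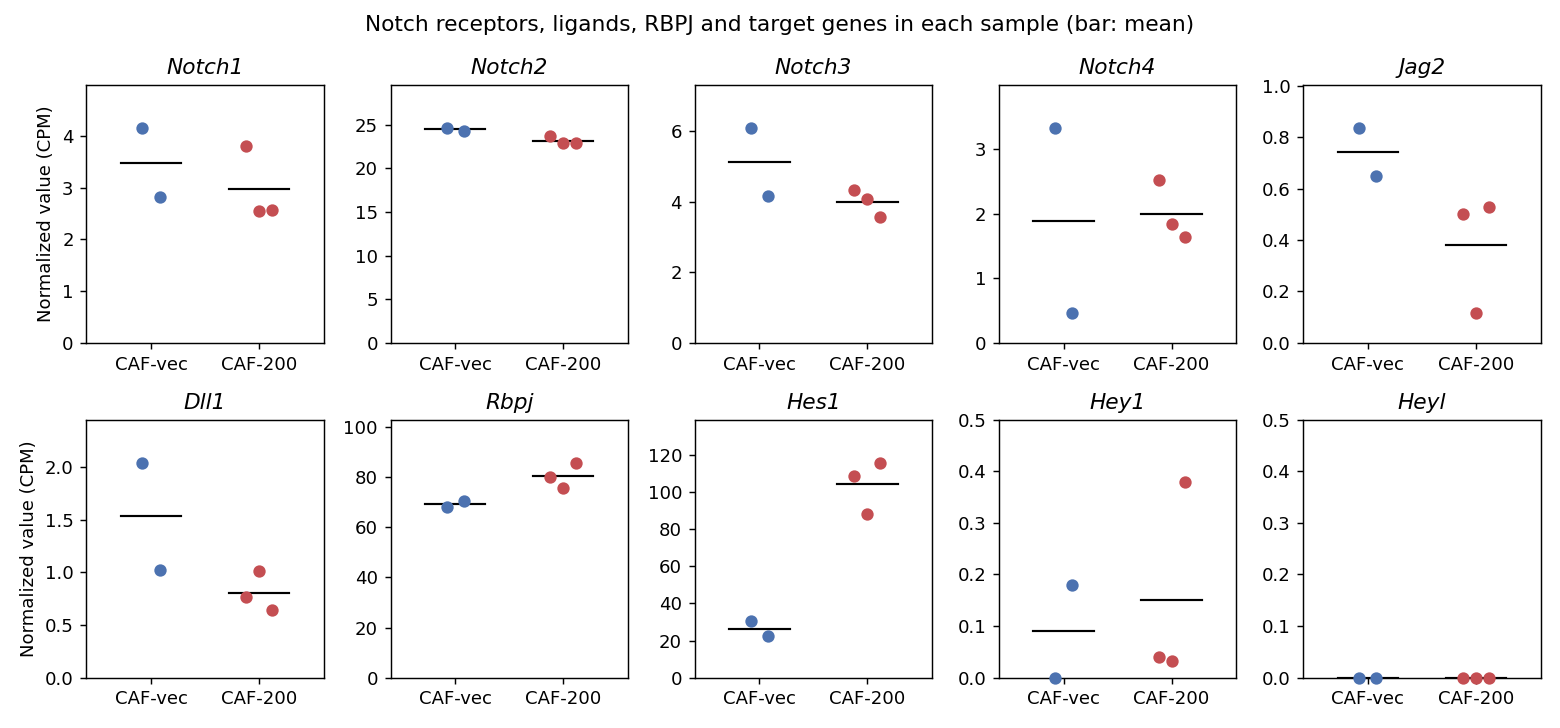
Normalized value in CPM of each of the 10 Notch genes in every sample, with CAF-vec in blue, CAF-200 in red and the group mean as a bar; each panel has its own axis starting at 0. *Hes1* is above 88 CPM in all 3 CAF-200 samples and below 31 CPM in both CAF-vec samples, while *Heyl* is listed at 0 in all 5 samples.

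Among the target genes, *Hes1*, which encodes a repressor that is a direct target of the Notch-RBPJ complex and also represses its own gene, was 30.6 and 22.3 CPM with the control vector. With the cluster it was 108.8, 88.3 and 115.9 CPM. The lowest CAF-200 value was well above the highest CAF-vec value. Its mean was 26.5 CPM in CAF-vec (SD 5.88, n = 2) and rose to 104.3 CPM in CAF-200 (SD 14.3, n = 3). On the log2(CPM + 0.5) scale the fold-change was 1.97 (standard error 0.180, 95% interval 1.52 to 2.41, limma adjusted *p* = 0.003), and it ranked 67 among the rises of all genes tested. *Hes1* also passed the thresholds of the study's volcano plot, an adjusted *p* under 0.01 with a log2 fold-change beyond 1, as did 2.37% of the genes tested in that direction. With any 1 CAF-200 sample left out its adjusted *p* was 0.0215 to 0.0277, above 0.01 but below 0.05. *Hes1* lies at chr16:30064384-30067796 on the plus strand (ENSMUSG00000022528) and overlaps no other annotated gene.

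The other target genes were at or near 0. *Hey1*, a HES-related repressor known from vessels and heart, was listed at 0 in CAF-vec 1, was 0.179 CPM in CAF-vec 2, and reached 0.0409, 0.0324 and 0.380 CPM with the cluster. Its groups overlapped, and it was below the level required for testing. CAF-vec 1 listed 845 genes at 0 that CAF-vec 2 did not, against 360 the other way. *Heyl*, the family member known from mural cells, was listed at 0 in all 5 samples. Neither gene reached a level at which it could be compared with *Hes1*.

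None of the 4 receptors passed the test between groups, and none did so at an unadjusted *p* under 0.05 (limma). *Notch2*, the receptor with the highest level here, was 24.6 and 24.3 CPM in CAF-vec and 23.7, 22.9 and 22.9 CPM in CAF-200. Each CAF-200 sample lay below the lower CAF-vec sample by a small margin, and the log2 fold-change was -0.078 (95% interval -0.28 to 0.12, limma adjusted *p* = 0.485), which turned to 0.019 with quantile normalization and to 0.018 with medians of samples set equal. *Notch3*, known for its role in mural cells, was 6.10 and 4.17 CPM in CAF-vec and 4.33, 4.08 and 3.57 CPM in CAF-200, so the groups overlapped (log2 fold-change -0.31, 95% interval -0.76 to 0.14, limma adjusted *p* = 0.233). Its highest value, that of CAF-vec 1, stood apart, and without CAF-vec 2 the log2 fold-change was -0.56 while without CAF-vec 1 it was -0.060. *Notch1*, the receptor first linked to T cell leukemia, was 4.15 and 2.81 CPM in CAF-vec and 3.81, 2.55 and 2.57 CPM in CAF-200. The sample numbered 1 was the highest of each group, and the groups overlapped (log2 fold-change -0.20, 95% interval -0.76 to 0.37, limma adjusted *p* = 0.535), with a log2 fold-change of 0.049 without CAF-vec 1.

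*Notch4*, an endothelial receptor, was 3.33 and 0.460 CPM with the control vector, against 2.53, 1.84 and 1.64 CPM with the cluster. The CAF-vec values lay on either side of all CAF-200 values, so its log2 fold-change of 0.37 (95% interval -1.04 to 1.77, limma adjusted *p* = 0.642) had no direction that both CAF-vec samples shared. It was 1.37 without CAF-vec 1 and -0.63 without CAF-vec 2. In these fits the lone CAF-vec sample is assumed to vary like the CAF-200 samples.

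**Figure D2:**
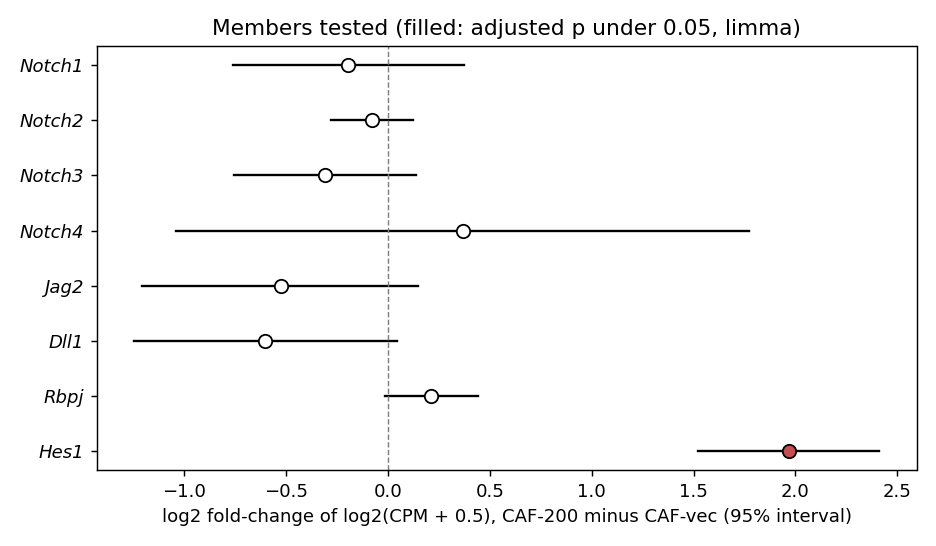
Log2 fold-change of log2(CPM + 0.5), CAF-200 minus CAF-vec, of the 8 Notch genes tested, with its 95% interval from limma; a filled point passed an adjusted *p* under 0.05. The interval of *Hes1*, 1.52 to 2.41, lies above 0, and those of the other 7 genes include 0.

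Both ligands had lower values in CAF-200 but did not pass the test. *Dll1*, a Delta ligand, was 2.04 and 1.02 CPM in CAF-vec and 0.761, 1.01 and 0.645 CPM in CAF-200. CAF-200 2 lay just below CAF-vec 2, and the ratio of the means, CAF-vec to CAF-200, was 1.90 (log2 fold-change -0.60, standard error 0.261, 95% interval -1.25 to 0.044, limma adjusted *p* = 0.13). The value rested on CAF-vec 1, since the log2 fold-change was -0.97 without CAF-vec 2 and -0.23 without CAF-vec 1. *Jag2*, a Jagged ligand, was 0.836 and 0.648 CPM in CAF-vec and 0.5005, 0.115 and 0.531 CPM in CAF-200. The groups did not overlap, but CAF-200 2 stood apart from the other CAF-200 samples (log2 fold-change -0.53, 95% interval -1.20 to 0.15, limma adjusted *p* = 0.188, and -0.29 without that sample). At these levels the added 0.5 CPM understates fold-changes, and with 0.1 CPM added the log2 fold-change of *Jag2* was -0.95 and that of *Dll1* -0.80.

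*Rbpj*, the transcription factor through which all 4 receptors act, was 68.0 and 70.5 CPM in CAF-vec and 80.2, 75.5 and 85.8 CPM in CAF-200. The CAF-200 values all lay above the CAF-vec values, with a ratio of the means of 1.16, but the difference did not pass the test (log2 fold-change 0.21, 95% interval -0.015 to 0.44, limma adjusted *p* = 0.129). Without CAF-vec 2, which leaves a lone CAF-vec sample, the log2 fold-change was 0.24. After quantile normalization the log2 fold-change was 0.31 (limma adjusted *p* = 0.0705).

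**Figure D3:**
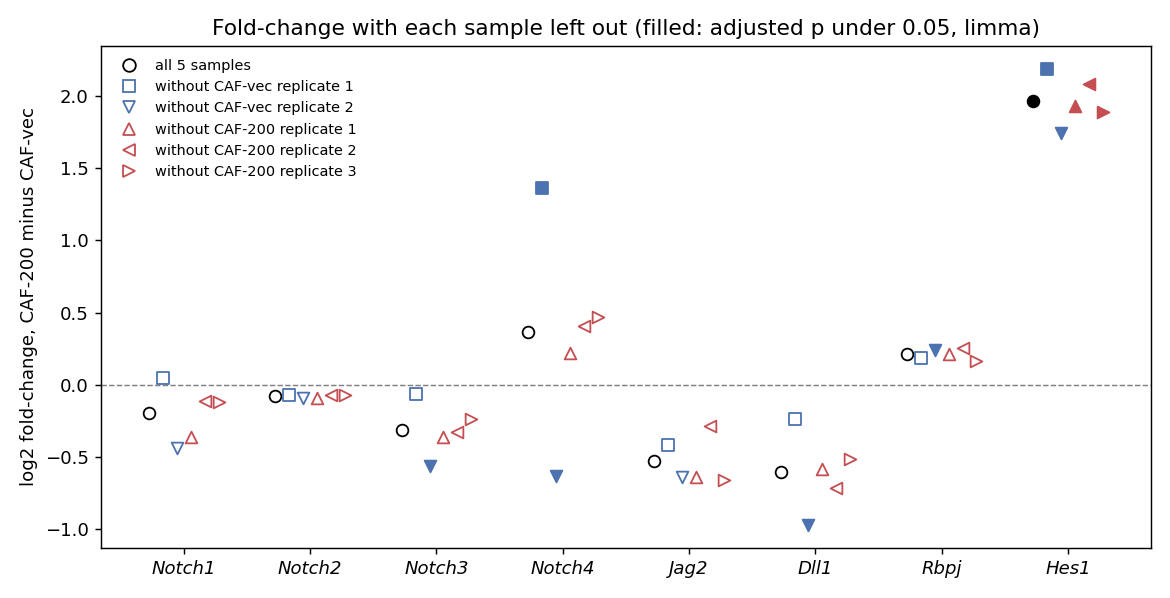
Log2 fold-change, CAF-200 minus CAF-vec, of the 8 Notch genes with all 5 samples and with each sample left out in turn. Filled symbols passed an adjusted *p* under 0.05 (limma). In fits without a CAF-vec sample, the lone CAF-vec sample left is assumed to vary like the CAF-200 samples. *Hes1* stays between 1.74 and 2.19 and passes in all 5 of these fits, whereas *Notch4* runs from -0.63 to 1.37.

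RefSeq promoter windows (GRCm38.p6), which reach from upstream of a start to just past it, were at hand for 7 of the 10 genes, namely the receptors, *Jag2*, *Dll1* and *Rbpj*, in 9 windows. They were searched on both strands for TGGGAA, the core of the sequence that RBPJ binds, which 25.6% of all 32851 windows hold. It was found in 2 windows, both of *Rbpj* itself and overlapping each other. This share of the windows is no higher than that of all windows. The matches are shown, with the core or its reverse complement in capitals, as the only ones in these windows, at chr5:53590197-53590202 and chr5:53590281-53590286 on the plus strand.
Rbpj forward: gaaaaaggcTGGGAAcccgcggcg
Rbpj reverse: gctcgcattTTCCCAggacccctc
A match is a description of letters, and these data do not measure binding.

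Per kilobase of exon sequence, the order of the levels was led by *Hes1* in both groups. In CAF-vec the mean was 13.01 CPM per kb for *Hes1*, 5.43 for *Rbpj*, 2.27 for *Notch2* and 0.635 for *Notch3*, and the sample ranges of these 4 genes did not overlap. *Dll1* (0.363 CPM per kb), *Notch1* (0.245) and *Notch4* (0.235) followed with overlapping ranges, then *Jag2* (0.107), whose range also overlapped that of *Notch4*, and *Hey1* (0.0275). In CAF-200 the first 4 places were the same, at 51.2, 6.31, 2.15 and 0.494 CPM per kb, again without overlap. *Notch4* (0.248 CPM per kb), *Notch1* (0.209) and *Dll1* (0.191) followed with overlapping ranges, and *Jag2* (0.0549) overlapped *Hey1* (0.0462). *Rbpj* has 12 annotated transcripts, and with the longest of them in place of all exons its level in CAF-vec was 12.6 CPM per kb, still second.

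*Notch2* made up most of the receptor pool in every sample. Of the 4 receptors' summed level per kb, *Notch2* held 61.0% and 74.5% in the CAF-vec samples and 66.3%, 70.0% (69.95%) and 72.02% in CAF-200, and these ranges overlapped. *Notch3* held 20.1% and 17.1% in CAF-vec and 16.2%, 16.6% and 14.97% in CAF-200, and all 3 CAF-200 shares lay below both CAF-vec shares. *Notch1* held 5.91% to 8.08% over all samples. The share of *Notch4* was 11.04% in CAF-vec 1 and 1.89% in CAF-vec 2, on either side of the 6.89% to 9.47% of CAF-200. The sum of the receptors was 3.75 and 3.02 CPM per kb in CAF-vec and 3.31, 3.03 and 2.95 CPM per kb in CAF-200. These shares are descriptions without a test.

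**Figure D4:**
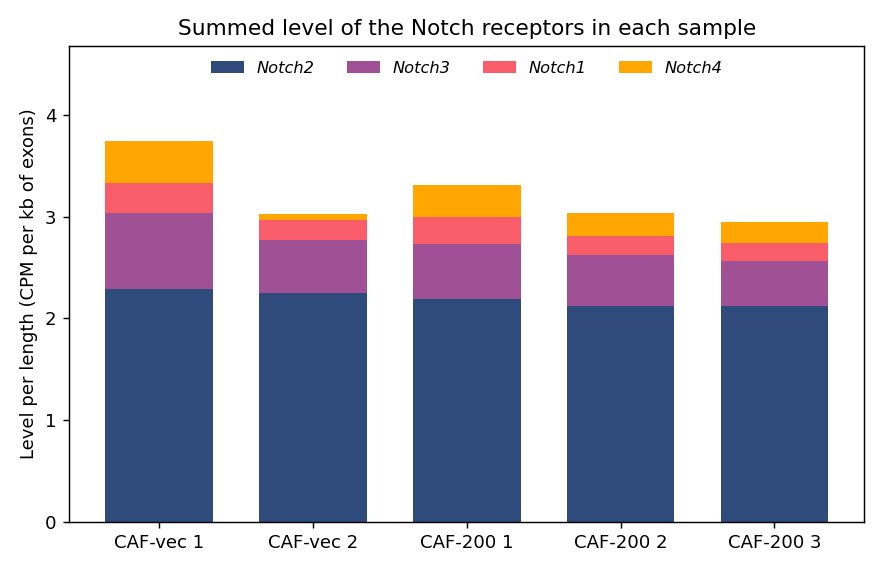
Level per length, in CPM per kb of exons, of the 4 Notch receptors stacked for each sample. *Notch2* is the largest part of every bar, 61.0% to 74.5%, and the bars reach 2.95 to 3.75 CPM per kb.

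The rest of the pathway was described with 7 lists by role, holding 84 genes. Of these, 69 were tested, and 25 passed, 6 higher (8.70%) and 19 lower (27.5%) in CAF-200, beside 11.9% and 18.6% of all genes tested. Their median log2 fold-change was -0.21, and after quantile normalization or centring 7 were higher (10.1%, beside 14.7% or 15.4% of all genes tested) and 16 or 14 lower (23.2% or 20.3%, beside 15.55% or 14.4%), with a median of -0.11 in either case. All 25 kept their sign under the alternative fits they entered (13, or 12 for *Egfl7*, which the filter of at least 1 CPM in every sample removed), and 6 of them (*Gxylt2*, *Tle2*, *Fhl1*, *Mib2*, *Dtx3* and *Myc*) passed in all 13. The other 19 did not pass in at least 1 of them: 17 passed in none of the 3 fits that leave out a CAF-200 sample, and *Psen2* and *Hes6* in only 1 of them. With any 1 CAF-200 sample left out, 2 genes were higher (2.9%, beside 3.6% to 4.3% of all genes tested). In these fits 4 to 5 genes were lower (5.8% to 7.2%, beside 4.0% to 5.7%). With the thresholds of the study's volcano plot, 1 was higher (*Fhl1*) and 3 were lower (*Gxylt2*, *Tle2* and *Dtx3*), as were 2.37% and 2.35% of all genes tested.

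On the log2(CPM + 0.5) scale the largest change in these lists was that of a glycosyltransferase, an enzyme of the kind that builds the sugars on the EGF repeats of Notch, although the ratio of means of the low-level gene *Egfl7* (6.83) was larger. *Gxylt2*, which adds a xylose to the O-linked glucose, was 31.7 and 31.0 CPM in CAF-vec and 6.73, 6.38 and 6.57 CPM in CAF-200. The groups lay far apart and the samples of each were close together, with a ratio of the means, CAF-vec to CAF-200, of 4.78 (log2 fold-change -2.17, standard error 0.0884, limma adjusted *p* = 8.4e-04). Of the 10 tested glycosyltransferases, 4 fell and 1 rose, beside 18.6% and 11.9% of all genes tested. The others that fell were *Xxylt1*, which extends that xylose (log2 fold-change -0.36), the Fringe enzyme *Rfng* (-0.50) and the O-glucosyltransferase *Poglut3* (-0.43), and its relative *Poglut2* rose (0.28). *Pofut1* and *Poglut1*, which start the O-fucose and O-glucose chains, had log2 fold-changes of -0.0086 and 0.16 and did not pass. *Xxylt1* no longer passed after quantile normalization or centring, *Poglut2* did not pass without the variance trend, and *Gxylt2* was the only one of the 5 that passed with each CAF-200 sample left out in turn.

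Of the 10 tested genes of receptor cleavage, 5 fell and none rose (0 also at an unadjusted *p* under 0.05, limma), beside 18.6% and 11.9% of all genes tested. *Furin*, which makes the first cut in the Golgi, had a log2 fold-change of -0.37, and *Adam17*, a surface protease, one of -0.37. The γ-secretase subunits *Psen2* (-0.77), *Psenen* (-0.52) and *Ncstn* (-0.33) fell. *Psen2* was 24.2 and 19.4 CPM in CAF-vec and 11.7, 12.1 and 13.7 CPM in CAF-200, without overlap (limma adjusted *p* = 0.0119). *Adam10*, the main protease of ligand-induced cleavage, had a log2 fold-change of 0.19 and did not pass. *Ncstn*, *Adam17* and *Psenen* overlap protein-coding genes on the opposite strand in the annotation, and how strand was used in counting is not given in the sources used here. *Adam17* and *Ncstn* did not pass after quantile normalization or centring. With any 1 CAF-200 sample left out *Furin*, *Adam17*, *Ncstn* and *Psenen* did not pass (limma adjusted *p* = 0.101 to 0.131 for *Furin* and 0.0593 to 0.0627 for *Psenen*), nor did *Psen2* without CAF-200 1 (0.0584) or CAF-200 2 (0.0614).

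In the nucleus, 1 of 8 co-activators and 2 of 14 co-repressors and competitors passed, beside 30.5% of all genes tested. Among the co-activators, *Crebbp*, a histone acetyltransferase, fell (log2 fold-change -0.34, limma adjusted *p* = 0.038). Its log2 fold-change stayed between -0.37 and -0.24 in the alternative fits. It did not pass after quantile normalization or centring, or with any 1 CAF-200 sample left out. The Mastermind gene *Maml2* had -0.35 (limma adjusted *p* = 0.328) with overlapping groups, 0.094 without CAF-vec 2 and -0.79 without CAF-vec 1. Of the co-repressors and competitors, 1 fell and 1 rose. *Tle2*, a Groucho co-repressor of the kind that HES proteins recruit, was 115.8 and 147.2 CPM in CAF-vec and 48.7, 52.4 and 39.7 CPM in CAF-200 (log2 fold-change -1.48, standard error 0.163, limma adjusted *p* = 0.00413). *Fhl1*, which encodes a LIM protein with a splice form that competes for RBPJ, was 17.1 and 14.0 CPM in CAF-vec and 40.4, 40.7 and 42.9 CPM in CAF-200 (1.39, standard error 0.112, limma adjusted *p* = 0.00255). Neither gene's groups overlapped. Values by gene do not show which splice form of *Fhl1* was present.

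Of 19 tested genes in a mixed list of endocytosis genes, ubiquitin ligases, Dishevelled genes and *Egfl7*, 5 fell and 2 rose, beside 18.6% and 11.9% of all genes tested. *Mib2*, a ligase for Notch ligands, was 19.2 and 17.7 CPM in CAF-vec and 10.4, 9.49 and 10.9 CPM in CAF-200 (log2 fold-change -0.82, limma adjusted *p* = 0.0057). *Dtx3*, a Deltex ligase, was 168.3 and 141.7 CPM in CAF-vec and 80.9, 73.0 and 71.5 CPM in CAF-200 (-1.04, limma adjusted *p* = 0.00413). *Dtx2* (-0.59), *Dvl2* (-0.53), a Dishevelled gene of the Wnt pathway that also meets Notch, and *Neurl1a* (-0.40) also fell, the last of them no longer past the test after either rescaling or without CAF-vec 1 (-0.37), while *Dtx4* rose (0.40). The log2 fold-change of *Dtx2* was -0.38 without CAF-vec 1 and -0.80 without CAF-vec 2. *Dvl2* overlaps a protein-coding gene on the opposite strand in the annotation. *Egfl7*, a secreted protein that binds Notch, was listed at 0 in CAF-vec 1, was 0.330 CPM in CAF-vec 2 and 1.47, 1.19 and 0.718 CPM in CAF-200 (1.31, limma adjusted *p* = 0.027), and it overlaps other protein-coding genes. *Egfl7* reached the level required for testing only in CAF-200, the group where it was higher. Its call, counted among the 2 rises here, was therefore not independent of that difference. With a 0 among its values the fold-change depended on the added constant, at 0.87 with 1 CPM and 2.51 with 0.1 CPM, and it did not pass with any 1 CAF-200 sample left out (limma adjusted *p* = 0.056 to 0.0967). *Numb*, the classical inhibitor of Notch, had a log2 fold-change of -0.0072 and did not pass.

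Among the other ligands, 3 of 8 were tested. *Dlk1*, a Delta-like protein that lacks the domain used by classical ligands, fell from 332.7 and 233.7 CPM in CAF-vec to 179.3, 164.5 and 181.5 CPM in CAF-200 (log2 fold-change -0.67, limma adjusted *p* = 0.0306). The log2 fold-change of *Dlk1* was -0.42 without CAF-vec 1 and -0.93 without CAF-vec 2, and it did not pass with any 1 CAF-200 sample left out (limma adjusted *p* = 0.0968 to 0.116). Its relative *Dlk2* had -0.87 and lower values in all CAF-200 samples (limma adjusted *p* = 0.0502). The log2 fold-change of *Dlk2* was -0.43 without CAF-vec 1 and -1.30 without CAF-vec 2. *Dlk2* passed after quantile normalization (-0.75, limma adjusted *p* = 0.0492) and with the replicate number as a block (-0.89, limma adjusted *p* = 0.0433). It did not pass with any 1 CAF-200 sample left out (limma adjusted *p* = 0.115 to 0.152), and it overlaps a protein-coding gene on the opposite strand in the annotation. *Jag1* was 2.72 and 3.26 CPM in CAF-vec and 2.71, 2.46 and 2.19 CPM in CAF-200, close together (-0.24, limma adjusted *p* = 0.239).

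Of 5 tested genes among the other helix-loop-helix factors and direct targets, 2 rose and 2 fell, beside 11.9% and 18.6% of all genes tested. *Myc*, a direct target in T cells and a growth regulator, was 45.9 and 52.6 CPM in CAF-vec and 89.9, 78.6 and 87.9 CPM in CAF-200, without overlap (log2 fold-change 0.79, limma adjusted *p* = 0.00691). *Hes6*, a family member that counters HES1, was 41.4 and 30.2 CPM in CAF-vec and 19.7, 17.0 and 17.6 CPM in CAF-200, the opposite direction to *Hes1* (-0.95, limma adjusted *p* = 0.0102). The related repressors *Bhlhe40* and *Bhlhe41* also differed in direction, at 0.56 and -0.69. *Ccnd1*, a cell cycle regulator, had 0.15 and did not pass.

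**Figure D5:**
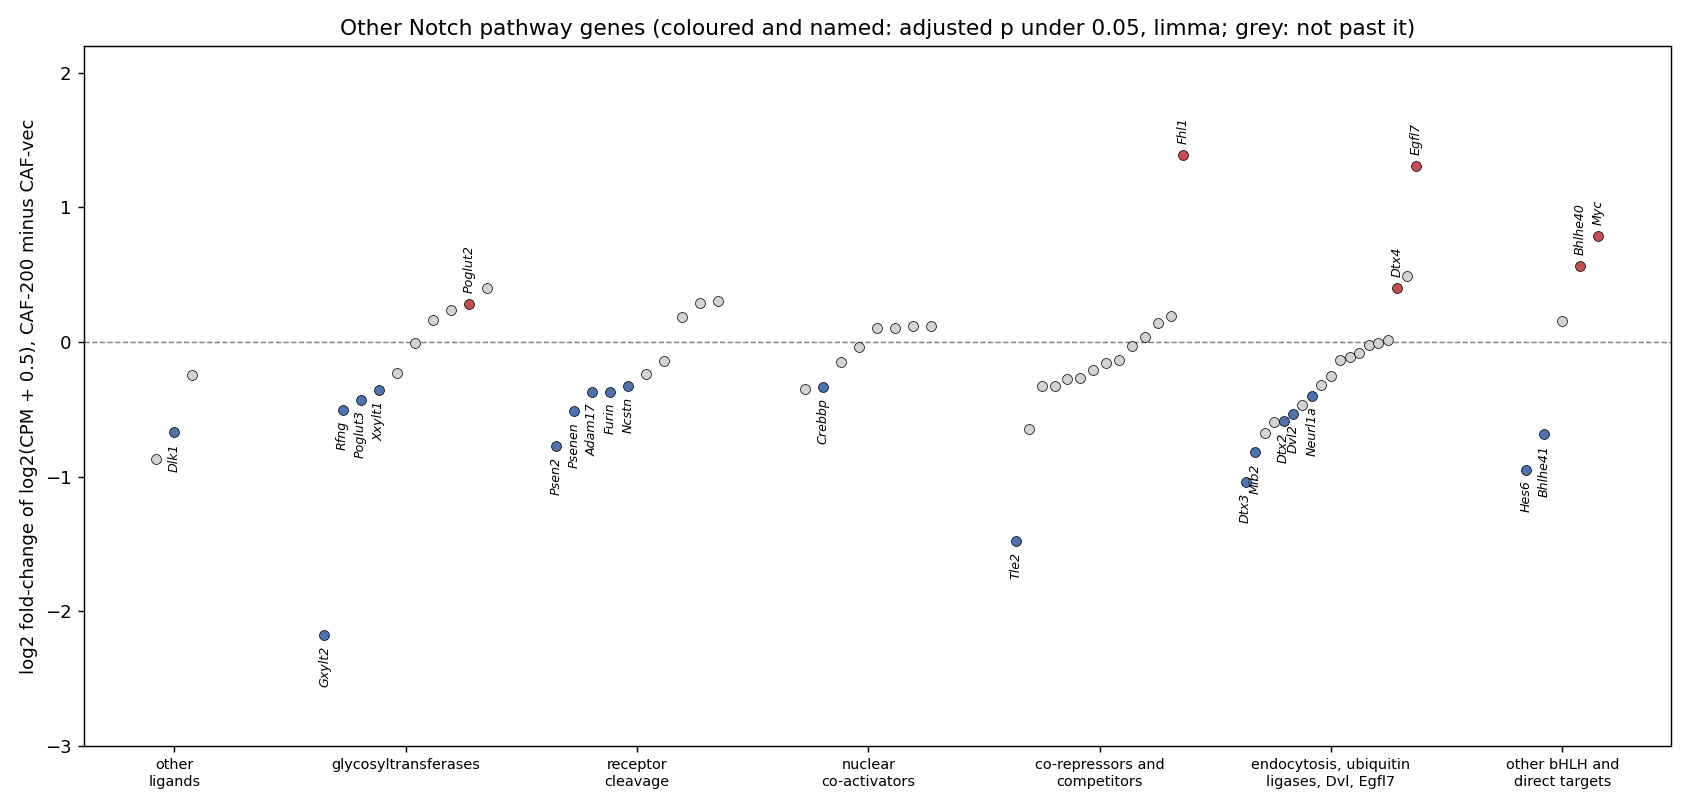
Log2 fold-change of log2(CPM + 0.5), CAF-200 minus CAF-vec, of the 69 tested genes in the 7 lists of other Notch pathway genes, 1 point per gene sorted within each list; red points passed higher, blue points passed lower and grey points did not pass an adjusted *p* under 0.05 (limma). *Gxylt2*, at -2.17, is the lowest point and *Fhl1*, at 1.39, the highest.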

How the data were processed

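RNA of CAF-vec (2 samples) and CAF-200 (3 samples) was sequenced from stranded mRNA libraries. The values the authors deposited are CPM after normalization (the table's name gives TMM), and the submitters' processing notes name cutadapt, Trimmomatic, STAR, RSEM, edgeR and GRCm38. All 5 columns were used and 0 were left out. Low values were not whole multiples of the smallest common value (17.8% to 37.6% lay within 0.05 of one), so no count test was run and depth is unknown. In CAF-200, genes were listed at 0 in all samples (6127) or in none, and 816 to 1108 genes a sample lay between 0 and 0.005 CPM.

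Genes were tested if 2 samples or more reached 0.5 CPM (12175 of 21835). The test was limma 3.58.1 (R 4.3.3) with a variance trend, applied to log2(CPM + 0.5), and *p* values were adjusted by Benjamini-Hochberg over all genes tested. The method was run on simulated data with independent noise and the same spread in both groups. That simulation could not show how unequal spread, or samples that depend on each other, affects the *p* values here. Names, exon lengths and 3′-UTRs came from GENCODE M21 (GRCm38), and *Poglut2* and *Poglut3* were matched through RefSeq synonyms. The Notch genes and lists were chosen with earlier results of these data known. Named are all 10 genes, every listed gene past the test, the 2 largest fold-changes of lists with fewer than 2 such genes, and *Zeb1* and *Zeb2*; *Adam10*, *Pofut1*, *Poglut1*, *Numb*, *Jag1*, *Ccnd1* and the genes below the testing level were added after their values were seen. Alternatives were other pseudocounts, filters, scalings and thresholds, no variance trend, the replicate number as a block, each sample left out, and transcript length.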

Additional observations from a re-analysis of the deposited data

How the results depend on the processing

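*Hes1* passed an adjusted *p* under 0.05 in all 13 alternative fits (log2 fold-change 1.74 to 2.19, adjusted *p* 5.7e-05 to 0.0277, limma), and for what changed below, the cause was not tested. Counts from edgeR or DESeq2 were not run, because whole reads were not recovered. Over all genes, 1446 higher and 2265 lower became 542 and 678 at an adjusted *p* under 0.01, 289 and 286 with a log2 fold-change beyond 1 as well, 434 to 3031 and 482 to 4835 with 1 sample left out, and 1872 and 1756 after centring, where 51.6% of the calls were higher against 39.0%. With the replicate block, which also takes CAF-200 3 out of the contrast because no CAF-vec sample shares its number, 630 were higher and 852 lower. *Hes1* stayed the only Notch gene past the test (1.89, adjusted *p* = 0.00408, limma). The other pathway genes became 3 higher and 7 lower (4.3% and 10.1%, beside 5.2% and 7.0% of all genes tested), *Dlk2* among the lower. Deviations of same-numbered samples correlated at 0.25 and 0.13, and since there are only 2 such pairs and the labels do not say what a number marks, the numbers were not taken as pairs. With 1 sample left out, 1 to 2 Notch genes were higher and 0 to 3 lower, and 2 to 13 other pathway genes were higher and 4 to 31 lower. The largest of these counts came from the fits with a lone CAF-vec sample. In those fits more of all genes tested also passed, in both directions, than with all 5 samples. These largest counts are therefore not read as particular to Notch genes. Without any 1 CAF-200 sample, 1 of 8 Notch genes was higher, beside 3.6% to 4.3% of all genes tested. In the same fits 0 were lower, beside 4.0% to 5.7%. With all 5 samples, the 6 and 19 other pathway genes became 2 and 6 of 69 at an adjusted *p* under 0.01, beside 542 and 678 of 12175 genes tested. With the fold-change threshold they became 1 and 3, beside 2.37% and 2.35% of all genes tested. With 1 sample left out, log2 fold-changes ran from -0.44 to 0.049 for *Notch1*, -0.094 to -0.068 for *Notch2*, -0.56 to -0.060 for *Notch3*, -0.63 to 1.37 for *Notch4*, -0.66 to -0.29 for *Jag2*, -0.97 to -0.23 for *Dll1* and 0.17 to 0.26 for *Rbpj*. *Notch2* turned to 0.019 after quantile normalization and 0.018 after centring. *Zeb2* ranged from -0.54 to 0.083 and *Maml2* from -0.79 to 0.094. With the longest transcript as the length, *Notch1* held 10.0% of the receptor level in CAF-vec and 9.38% in CAF-200, in place of 7.17% and 6.70%, and *Notch3* held 14.99% in CAF-200 in place of 15.9%. Samples of 2 and 3 limit what differences could be detected, and depth could not be assessed.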

Other observations

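Several further Notch target genes and ligands lay below the level required for testing and are given as values. *Hey2*, a HES-related repressor of heart and vessels, was listed at 0 in CAF-vec 1, was 0.109 CPM in CAF-vec 2 and was 0.201, 0.213 and 0.252 CPM in the CAF-200 samples, above both CAF-vec values. *Nrarp*, a feedback inhibitor of Notch, was 0.0765 and 0.0791 CPM in CAF-vec and 0.0506, 0.112 and 0.0415 CPM in CAF-200, with overlapping groups. *Hes5* was listed at 0 in all 5 samples, as were *Hes2*, *Helt*, *Mfng* and *Rbpjl*. *Dll4*, the endothelial ligand, was at most 0.0379 CPM in any sample.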
